A study of Mus musculus with 3 samples.

Results

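The integrin subunits are the cell surface receptors described here across the change of mouse ovarian surface epithelium from an epithelial to a mesenchymal state. They were chosen by name: every gene whose name in the array annotation is Itgav, or is Itga or Itgb followed only by a number. The rule found 12 genes with 14 probes among the 9965 named genes tested, namely the 8 alpha subunits Itga2, Itga3, Itga4, Itga5, Itga6, Itga7, Itga9 and Itgav and the 4 beta subunits Itgb1, Itgb5, Itgb6 and Itgb7. Itgav and Itgb1 had 2 probes each, every other subunit had 1, and all 12 genes passed the filter on dim probes. No other integrin subunit is a member; probes with human integrin names are given beside the members they concern.

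Integrins are heterodimers of an alpha and a beta chain that anchor cells to the extracellular matrix or to other cells, and both chains are needed at the surface. The alpha chain largely sets the ligand: collagen, laminin, fibronectin and other proteins with the RGD tripeptide, or receptors on a neighbouring cell. The short tail of the beta chain binds talin and kindlin, which activate the receptor and link it to actin. In the ovarian surface epithelium, a mesothelial layer resting on a basal lamina, integrins hold the cells to that lamina.

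The cells came from 3 cultures of ovarian surface epithelium, dissociated from ovaries of virgin female C57/Bl6 mice after superovulation with PMSG and hCG and mating. The labels name no transgene, and they give neither the age of the mice nor the number of mice per culture. Each culture was divided: the epithelial group stayed in 2.5% fetal bovine serum, and the mesenchymal group spent 1 week in 15% serum. Serum concentration and cell state changed together, so their effects cannot be told apart. Both groups were collected at 80% confluence, and amplified RNA of both portions of a culture was hybridised together to 2 Agilent 2-colour arrays with the dyes exchanged. The 2 arrays of a culture were averaged, which gives n = 3 cultures from 6 arrays, and this number limits the precision.

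Each value is the log2 of the mesenchymal signal over the epithelial signal, so that a positive value is a higher signal in the mesenchymal portion. A gene was called higher or lower at an adjusted p under 0.05 in limma, with Benjamini-Hochberg adjustment over all 17514 features tested. Culture 1 stood apart: its log2 ratios over all probes that passed the filter on dim probes correlated with those of cultures 2 and 3 at 0.59 and 0.634, against 0.884 between cultures 2 and 3. The array of culture 3 with mesenchymal RNA in Cy3 had 1639 spots flagged as outliers by the scanner software, against 61 to 467 on the others. Of 7 tested markers of the ovarian surface epithelium, all were above the 95th percentile of the negative control spots in all 12 readings (2 channels on 6 arrays), and 6 were called lower in the mesenchymal portions. All 6 tested leukocyte markers and all 4 tested endothelial markers were also above this limit in all 12 readings. So were all 6 theca and stroma genes, all 4 smooth muscle genes and 5 of 6 granulosa genes. The share over all probes is not given here, so passing this limit does not show that a cell type was present. None of the leukocyte and endothelial markers was called in limma, with an unadjusted p under 0.05 for 0 of the leukocyte and 2 of the endothelial markers. In the other lists, of markers of cells an ovarian culture could hold, Acta2 (-1.19, 1 of 4 smooth muscle genes), Pdgfra (-0.84) and Ogn (-2.05, with Pdgfra 2 of 6 theca and stroma genes) and Inhbb (-0.64, 1 of 6 granulosa genes) were called lower. Acta2 was saturated on 5 arrays. Of the surface epithelium markers called lower, Krt7 and Krt8 were saturated on all 6 arrays and Krt19 on 2. Ppbp (0.73), the 1 platelet gene tested, was called higher. Over all features, 5.97% were called higher and 5.93% lower. The part of other cell types in the integrin ratios was not tested. In RNA from whole cultures, fewer cells of a type and less RNA per cell cannot be told apart.

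Itgb1 and Itgb5 were the subunits called, and the RefSeq sequence of the 250 bases before their transcription start is shown because both moved in the same direction. Capitals mark the GC box, GGGCGG on either strand, a motif bound by Sp-family factors. Itgb1 lies at chr8:128685404-128685653 on the + strand and Itgb5 at chr16:33829415-33829664 on the + strand, both in GRCm38.p6.
Itgb1: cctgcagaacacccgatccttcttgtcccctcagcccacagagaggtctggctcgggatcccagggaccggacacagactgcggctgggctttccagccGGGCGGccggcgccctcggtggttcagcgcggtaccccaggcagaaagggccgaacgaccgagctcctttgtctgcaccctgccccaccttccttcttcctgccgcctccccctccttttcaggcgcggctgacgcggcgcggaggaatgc
Itgb5: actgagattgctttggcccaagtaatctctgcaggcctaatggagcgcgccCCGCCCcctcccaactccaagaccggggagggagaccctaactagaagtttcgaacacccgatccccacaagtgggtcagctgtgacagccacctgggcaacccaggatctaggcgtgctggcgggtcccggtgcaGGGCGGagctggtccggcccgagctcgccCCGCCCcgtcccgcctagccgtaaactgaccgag

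The Itgb1 window holds 1 GC box and is 68.0% G and C. The Itgb5 window holds 3 GC boxes and is 65.2% G and C, where the median of all 32851 windows is 52.4%. Of the 12 subunits, 10 had a promoter window, with 12 windows in all. A GC box is in 6 of these 12 windows, from 5 of the 10 subunits, beside 32.7% of all windows. The TATA box (TATAAA on either strand) is in no window of these 10 subunits and in 12.4% of all windows. The AP-1 motif (TGANTCA, which reads alike on both strands) is likewise in none of theirs and in 6.75% of all. The TEAD motif (GGAATG on either strand) is in 1 of the 12 windows, that of Itgb1, at the end nearest the start site, and in 12.6% of all windows. None of these motifs shares its letters with a GC box in either printed window.

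Of the 12 integrin subunits, none was called higher and 2 were called lower in the mesenchymal portions, Itgb5 and Itgb1. Over all features, 5.97% were called higher and 5.93% lower, and a count of 2 among 12 genes is too small to be read as more or less than that background. At an unadjusted limma p under 0.05, 4 of the 12 passed, the same pair with Itga3 and Itgb7, beside 23.7% of all features. All 12 measured ratios were under 1.5-fold. Of the subunits, 6 lay above 0 and 6 below, with a median log2 ratio of 0.01 beside -0.0030 over all features. The median size of the ratio, regardless of direction, was 0.15 for the subunits and 0.09 for all features. A saturated spot compresses a ratio and a reading near background hides one, which leaves 8 subunits with no saturated array and all 12 readings (2 channels on 6 arrays) above the negative control limit. Of these 8, all had a 95% interval within 2-fold of no change, and 7, all but Itgb5, had one within 1.5-fold. The intervals of Itga2, Itga6, Itga9 and Itgb6 set no such limit. Among the 8, the Itga5 interval rested on 2 cultures, and those of Itgb1 and Itgav on the brighter probe alone. The dimmer Itgb1 probe varied more between cultures, with an SD of 0.41. By chain, 0 of 8 alpha subunits and 2 of 4 beta subunits were called, beside 5.97% of all features called higher and 5.93% lower. These counts are too small to be read as a difference between the chains, which was not tested.

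**Figure D1:**
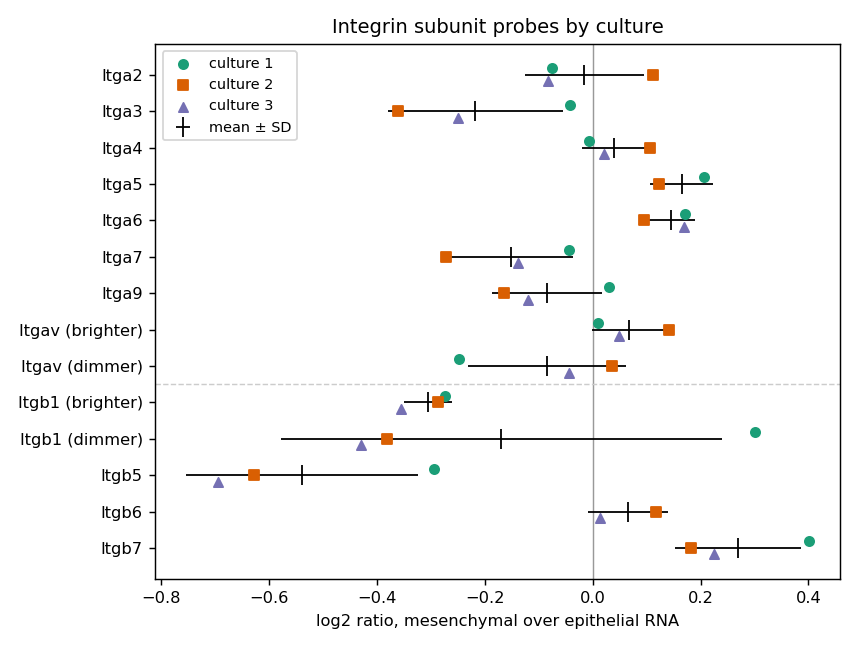
Log2 ratio of mesenchymal over epithelial RNA (x axis) for each of the 14 integrin subunit probes, alpha subunits above the dashed line and beta subunits below it; coloured points are the 3 cultures, and the black tick and line are their mean and SD. Itgb5 and the brighter Itgb1 probe lie below 0 in all 3 cultures, Itgb7 lies above 0 in all 3, and most alpha subunits lie close to 0.

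Itgb5, the beta chain that pairs with alpha V in a receptor for vitronectin, had the lowest ratio of the subunits. Its normalized log2 signal in the epithelial portions was 13.60, 13.83 and 13.84 in cultures 1, 2 and 3. In the mesenchymal portions of the same cultures it was 13.31, 13.20 and 13.14. The highest mesenchymal value was below the lowest epithelial value. How many of all features show such a separation is not given here, so it is no measure of how unusual Itgb5 is. The log2 ratios were -0.29, -0.63 and -0.70, with a mean of -0.54 ± 0.21 (SD, n = 3), which is 0.688 times the epithelial level (95% interval 0.584 to 0.811) and passed the test at an adjusted p of 0.018. On single arrays 5 of 6 ratios were below 0, and the exception was the array of culture 1 with mesenchymal RNA in Cy5, at 0.0024. Culture 1 thus showed the smallest decrease. Without culture 2 the ratio was -0.49 with an adjusted p of 0.071, and without culture 3 it was -0.46 with an adjusted p of 0.14, so the call needed both of these cultures. Without culture 1 it was still called, and with separate channels and no pairing of the portions of a culture it was not (adjusted p 0.18).

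Itgb1, the common partner of most alpha chains in receptors for collagen, laminin and fibronectin, had 2 mouse probes that did not give the same answer. The brighter one, which stood for the gene, read 15.56, 15.35 and 15.04 in the epithelial portions of cultures 1, 2 and 3. It read 15.29, 15.06 and 14.69 in the mesenchymal portions, lower in each culture than in its own epithelial portion, though the ranges of the groups overlapped because the cultures differed in signal. The ratios were -0.27, -0.29 and -0.36, with a mean of -0.31 ± 0.04 (SD, n = 3). That is 0.809 times the epithelial level, with an interval of 0.721 to 0.908, and it was called lower at an adjusted p of 0.038. Single arrays gave 5 ratios below 0 and 1 above, on the array of culture 1 with mesenchymal RNA in Cy5.

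The dimmer Itgb1 probe gave 0.30 in culture 1, -0.38 in culture 2 and -0.43 in culture 3. Cultures 2 and 3 fell on the same side as the brighter probe and culture 1 on the other, on both of its arrays, at 0.48 and 0.13. Its mean of -0.17 ± 0.41 (SD, n = 3) did not pass, with an adjusted p of 0.62 in the fit of every probe, where 11.3% of probes were called in either direction. Another probe, annotated with the human name ITGB1 and a human sequence accession, and therefore kept apart from the members, read 0.0024, 0.16 and 0.11, with a mean of 0.09 ± 0.08 and an adjusted p of 0.57. The lower Itgb1 signal was thus called on 1 of the 3 probes. With the mean of the 2 mouse probes the ratio was -0.24 and the adjusted p 0.21. The call on the brighter probe was also lost with a trended and robust variance (adjusted p 0.051), with 6 arrays and culture as a random block (0.082), with 5 arrays (0.11) and without the pairing (1). The brighter probe alone lost its call without culture 2 (-0.32, adjusted p 0.18) and without culture 3 (-0.28, adjusted p 0.29).

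**Figure D2:**
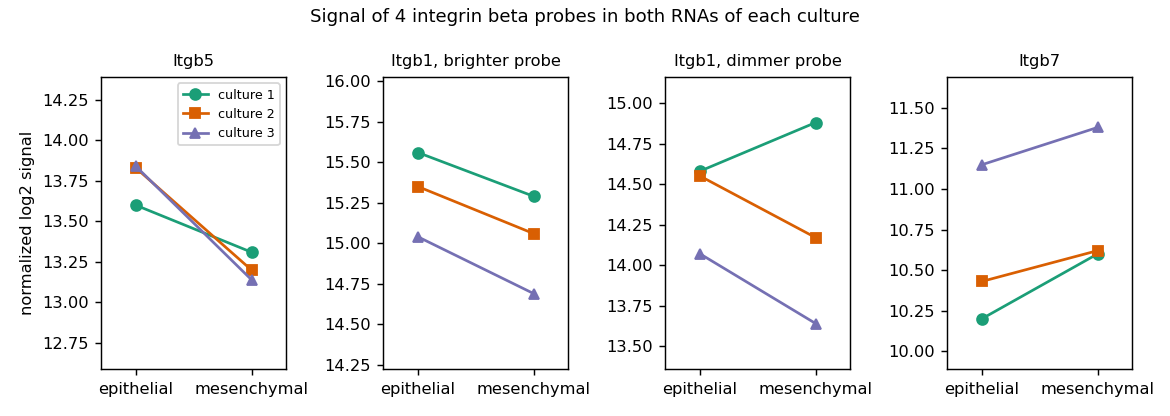
Normalized log2 signal (y axis, 1.8 log2 units in every panel) of Itgb5, both Itgb1 probes and Itgb7 in the epithelial and mesenchymal portion of each culture, joined by a line per culture. The mesenchymal signal is the lower in each culture for Itgb5 and the brighter Itgb1 probe. It is the higher in culture 1 only for the dimmer Itgb1 probe, and the higher in each culture for Itgb7.

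Itgb7, which pairs with alpha4 or alphaE in receptors best known from lymphocytes, had the highest ratio of the subunits but was not called. Its ratios were 0.40, 0.18 and 0.22 in cultures 1, 2 and 3, above 0 in each. The mean was 0.27 ± 0.12 (SD, n = 3), or 1.21 times the epithelial level with an interval of 1.06 to 1.37, at an adjusted p of 0.083. With 6 arrays and culture as a random block it was called, at an adjusted p of 0.042. All 3 arrays with mesenchymal RNA in Cy5 were above 0, at 0.46 to 0.65, whereas those with it in Cy3 ran from -0.20 to 0.15. The probe's dye effect, the part of the ratio that follows the dye and cancels within a culture, was 0.29, about as large as the ratio itself. The ratio of its alpha4 partner, Itga4, was 0.04, and none of the 6 leukocyte markers tested was called, with log2 ratios from -0.05 for Cd3e to 0.05 for Ptprc.

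Itgb6, an epithelial chain that with alpha V binds and activates latent TGF-beta, was measured in cultures 2 and 3, since an outlier flag removed culture 1. The ratios were 0.12 and 0.01, with a mean of 0.07 ± 0.07 (SD, n = 2) and an adjusted p of 0.78. The probe was dim: 10 of its 12 readings were above the 95th percentile of the negative control spots. The interval of 0.889 to 1.23 times the epithelial level covers no change. A human-named ITGB3 probe, for the other alpha V partner that binds vitronectin, was above the negative controls in 2 of 12 readings, and its ratio was -0.08.

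The calls also changed when culture 1 was left out. With cultures 2 and 3 alone, 32.2% of all features were called, and of the subunits Itgb7 was called higher (0.20, adjusted p 0.039). Itga3 (-0.31, adjusted p 0.00087), Itga7 (-0.21, adjusted p 0.037), Itgb1 and Itgb5 were called lower. That is 5 of the 11 subunits that could be tested, and the same number had an unadjusted limma p under 0.05, beside 39.7% of all features. In this fit limma gave all of these subunits the same standard error of 0.081, so the spread was in effect estimated over all features together. Without culture 2, 7.3% of features were called and none of 10 subunits, of which 3 had an unadjusted limma p under 0.05, beside 17.7% of features. Without culture 3, 4.95% of features were called and none of 11 subunits, of which 2 had an unadjusted limma p under 0.05, beside 16.4% of features.

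The laminin-binding alpha chains Itga3, Itga6 and Itga7 form receptors with beta1, and Itga6 also with beta4 in hemidesmosomes. Itga3 read -0.04, -0.36 and -0.25 in cultures 1, 2 and 3, below 0 in each and nearest to it in culture 1. The mean of -0.22 ± 0.16 (SD, n = 3) had an adjusted p of 0.19 and was not called. Itga6 read 0.17, 0.10 and 0.17, above 0 in each. Its mean of 0.15 ± 0.04 (SD, n = 3) was not called either, at an adjusted p of 0.28. The Itga6 probe was dim, with 10 of 12 readings above the negative control limit.

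Itga7, whose laminin receptor is best known from muscle, read -0.04, -0.27 and -0.14, with a mean of -0.15 ± 0.11 (SD, n = 3) and an adjusted p of 0.32. Its arrays split by dye. The 3 arrays with mesenchymal RNA in Cy5 gave 0.34, 0.29 and 0.37, and the 3 with it in Cy3 gave -0.43, -0.83 and -0.65. The dye effect of 0.48 was the largest among the member probes and larger in size than the ratio. A probe with the human name ITGA7 read 0.40, -0.27 and -0.12, with a mean of 0.0029 ± 0.35 (SD, n = 3), so culture 1 and the other cultures lay on opposite sides of 0 there.

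Itga2, a collagen-binding partner of beta1, read -0.07, 0.11 and -0.08, on both sides of 0. Its mean of -0.02 ± 0.11 (SD, n = 3) had an adjusted p of 0.94. This probe was saturated for each RNA on 3 of the 6 arrays, and a saturated spot pulls a ratio towards 0, so a difference in Itga2 could be larger than the arrays read.

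Itga5 and Itgav belong to the receptors for RGD ligands, Itga5 as the chief fibronectin receptor with beta1 and Itgav with several beta chains. Itga5 read 0.21 and 0.12 in cultures 1 and 2, and culture 3 was left out because 1 of its arrays carried an outlier flag. All 5 measured arrays were above 0, the lowest at 0.00055. The mean of 0.16 ± 0.06 (SD, n = 2) had an adjusted p of 0.39 and an interval of 0.954 to 1.32 times the epithelial level.

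The brighter Itgav probe read 0.0089, 0.14 and 0.05, with a mean of 0.07 ± 0.07 (SD, n = 3) and an adjusted p of 0.69. The dimmer one read -0.25, 0.04 and -0.04, with a mean of -0.09 ± 0.15 (SD, n = 3) and an adjusted p of 0.65 in the fit of every probe. The Itgav probes therefore lay on opposite sides of 0, each by less than its own SD or close to it. Both had dye effects, of -0.24 and -0.33, larger than their ratios.

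Itga4 and Itga9 form a related pair of chains that bind VCAM1, fibronectin splice segments, tenascin and osteopontin. Itga4 read -0.0072, 0.11 and 0.02, with a mean of 0.04 ± 0.06 (SD, n = 3) and an adjusted p of 0.82. Its interval was 0.914 to 1.16 times the epithelial level. Itga9 read 0.03, -0.16 and -0.12, with a mean of -0.08 ± 0.10 (SD, n = 3) and an adjusted p of 0.61. Only 3 of the 12 Itga9 readings were above the negative control limit, so the value says little about a level in these cells.

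Signal over background differed between the probes. Of the 14 member probes, 11 were above the negative control limit in all 12 readings, and the exceptions were Itga6, Itgb6 and Itga9. The sign was the same in all measured cultures for 9 of the 14 probes. On single arrays it was the same throughout for 1 probe, Itga5. The dye effect was called for 7 of the 14 probes, beside 57.7% of all probes, and in 7 of the 14 it was at least as large as the ratio. For 4 probes, those of Itga7, Itga9 and Itgb6 and the brighter Itgav probe, all arrays of one dye orientation lay on one side of 0 and all of the other orientation on the opposite side. Averaging over the exchanged dyes removed this part from the ratios per culture and their means, but not from the single-array ratios given above.

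**Figure D3:**
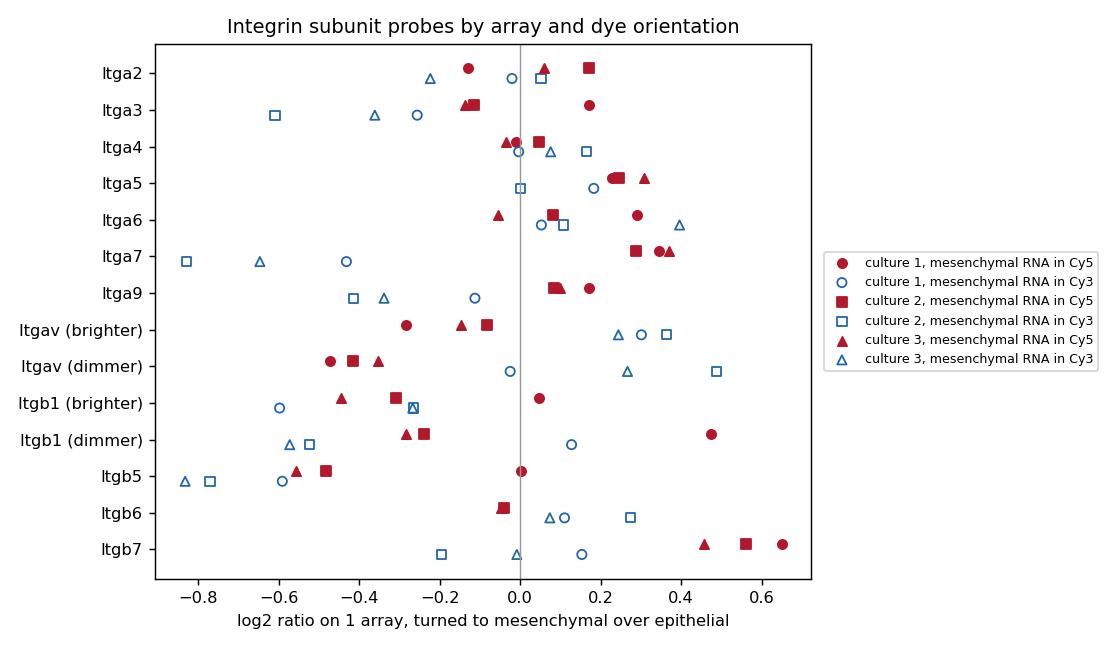
Log2 ratio on each single array, turned to mesenchymal over epithelial (x axis), for the 14 integrin subunit probes; filled red symbols are arrays with mesenchymal RNA in Cy5 and open blue symbols arrays with it in Cy3, and symbol shapes are cultures. Red and blue separate on opposite sides of 0 for Itga7, Itga9, Itgb6 and the brighter Itgav probe, whereas Itgb5 is below 0 on 5 of 6 arrays in both orientations.

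Of the matrix ligands, the collagen list had a median ratio of -1.27, further from 0 than the 0.01 of the integrin subunits. The medians of the RGD ligands and the laminin chains were 0.0089 and -0.17. Of 8 tested collagen chains from a list of integrin ligands, 5 were called lower and none higher, with a median log2 ratio of -1.27: Col1a2 (-3.18), Col5a2 (-1.63), Col4a1 (-1.42), Col4a2 (-1.39) and Col6a1 (-1.16), the last beyond the naming rule and added after its value was seen. Over all features, 5.97% were called higher and 5.93% lower. All 5 collagen chains kept their call without each culture in turn. Col1a2 was saturated on 4 arrays, Col4a2 on 3 and Col4a1 on 2, and a second, dimmer Col1a2 probe read -0.02 and was not called. Itga2, an alpha chain that binds collagens, read -0.02 beside them. Its probe was saturated for each RNA on 3 of the 6 arrays, which pulls a ratio towards 0.

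Of 12 tested RGD ligands, 2 were called higher and 1 lower, with a median of 0.0089. Over all features, 5.97% were called higher and 5.93% lower. Spp1, osteopontin, a ligand of alpha V, alpha4 and alpha9 receptors, was higher by 2.22 ± 0.24 (SD, n = 3; adjusted p 0.00020) as read with 2 arrays saturated, which pulls the ratio towards 0, and Tgfb1 by 0.65. Fbn1, fibrillin-1, was called lower at -0.42 but not without culture 3 (-0.41, adjusted p 0.19). Fn1, fibronectin, was saturated on all 6 arrays, so no ratio is given, and its dimmer probes read -0.03 and 0.21, neither called. Without culture 1, 4 of 11 tested RGD ligands were called higher and 1 lower, beside 32.2% of all features called in either direction. Vtn, vitronectin, was not among the features tested. Of 6 laminin chains, Lamb2 alone was called (-0.73, lower; -0.58 and adjusted p 0.070 without culture 3), and Lama5 read -0.31 (adjusted p 0.061; -0.25 and adjusted p 0.0091 without culture 1). The Lama5 probe was saturated on 2 arrays, and its other probes read -0.11 and -0.06, with an adjusted p of 0.82 when saturated probes were left out. The median of the laminin chains was -0.17. Without culture 1 the laminin list held 3 lower calls among 5 tested, beside the same 32.2% of all features.

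At the cytoplasmic tail, 6 of 25 tested activators and adaptors were called lower and 1 higher, with a median of -0.08. Over all features, 5.93% were called lower and 5.97% higher. Zyx, zyxin, read -1.30 and was saturated on 5 arrays. Tns1, tensin 1, read -0.75, and its other probes read -1.23, which was called, and -0.31, which was not (adjusted p 0.062). Fermt2, kindlin-2, which binds the beta tails, read -0.56, and Vcl, vinculin, also -0.56. Without culture 3 the Fermt2 (-0.62, adjusted p 0.052) and Vcl calls (-0.56, adjusted p 0.081) were lost, as was Vcl without culture 2 (-0.47, adjusted p 0.052). A dimmer Vcl probe read -0.20 and was not called. Without culture 3 the list held 2 lower calls and none higher among 25 tested, beside 4.95% of all features called in either direction. Without culture 1 it held 10 lower and 5 higher among 25 tested, beside 32.2% of all features. Rap1b, named after its value was seen, was the higher call at 0.33, and it was lost without culture 2 (0.28, adjusted p 0.26) or culture 3 (0.31, adjusted p 0.29). Rap1b was saturated on 2 arrays and lost its call in 9 of 18 alternatives, median centring (adjusted p 0.13) and the authors' deposited value table (0.065) among them.

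Of 12 tested tetraspanins and other lateral partners, 5 were called higher and 3 lower, with a median of 0.10. Over all features, 5.97% were called higher and 5.93% lower. Cd9, a tetraspanin that associates with beta1 integrins, read 1.17 beside a dye effect of -3.63, and was not called without culture 3 (0.94, adjusted p 0.088). Sdc1, syndecan-1, read 0.94 in 2 cultures, while its dimmer probe read 0.16 and was not called. Slc3a2, the CD98 heavy chain that binds beta tails, read -0.95, with -0.19 in culture 1 and -1.38 and -1.29 in cultures 2 and 3, and was not called without culture 2 (-0.74, adjusted p 0.10) or culture 3 (-0.78, adjusted p 0.21), nor in 4 other settings, with adjusted p of 0.051 to 0.38. Cav1, caveolin-1, read -0.75 and was saturated on 2 arrays, with -0.42 and no call on its dimmer probe. Without culture 3 this list held 2 higher and 1 lower calls among 12 tested, beside 4.95% of all features called in either direction. Without culture 2 it held 3 and 1 among 11 tested, beside 7.3% of all features. Without culture 1 it held 4 higher and 4 lower among 11 tested, beside 32.2% of all features.

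The shorter lists held few calls, beside 5.97% of all features called higher and 5.93% lower. Without culture 1, 32.2% of all features were called in either direction. There the counter-receptors held 2 higher calls and 1 lower call of 4 tested. The hemidesmosome partners held 1 higher and 1 lower of 4, and the binding proteins 1 higher and 0 lower of 3. Of 4 tested counter-receptors on other cells, Vcam1, the ligand of alpha4 receptors, was called higher at 0.78 and Jam3 lower at -0.52, the latter not without culture 3 (-0.50, adjusted p 0.072). Of 4 tested hemidesmosome partners of the alpha6 beta4 receptor, Krt14 was called lower at -3.22, and Cd151 and Plec, the brightest of the list, read 0.18 and -0.06. None of 4 tested integrin binding proteins was called in limma, either adjusted or at an unadjusted p under 0.05, with Eif6 at 0.12 and Rack1 saturated on all 6 arrays. Of 6 letter-named and platelet integrin subunits listed, none was among the features tested.

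**Figure D4:**
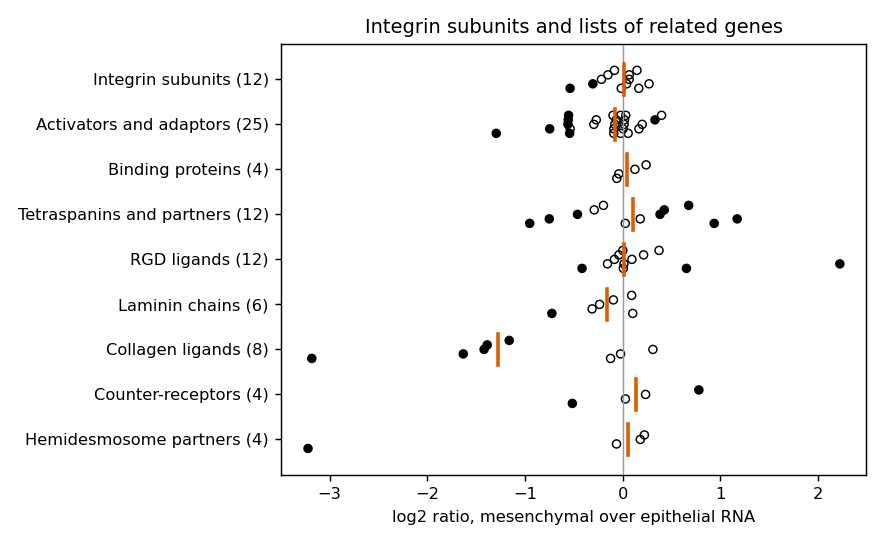
Log2 ratio of mesenchymal over epithelial RNA (x axis) for the 12 integrin subunits and for the tested genes of each list of related genes, with the number tested in parentheses; filled points were called at an adjusted p under 0.05 in limma, open points were not, and orange bars are medians. The subunits lie between -0.54 and 0.27, while single genes of the ligand and partner lists reach -3.22 and 2.22.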

How the data were processed

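RNA of 3 cultures, each in an epithelial and a mesenchymal portion, was measured on 6 arrays. The deposited scanner files hold spot intensities on a linear scale (mean signal and local background), output of Agilent Feature Extraction per the file headers. The deposited log10 ratios were computed by that software from its dye-normalised signals, per the file headers. In the authors' deposited value table the log10 ratios equal the averaged, turned scanner ratios (correlation 1), with medians of 0.00555, -0.0101 and -0.00233, so its scale, centring and direction are known as far as the dyes are. The submitters' processing notes name limma. The dye orientation of each array came from the names of the deposited arrays, as the labels do not settle it.

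Intensities were corrected with normexp (offset 50), loess-normalised array by array (limma 3.58.1, R 4.3.3), and turned to mesenchymal over epithelial. The 20371 probes other than controls were used, without outlier-flagged spots and with saturated ones. The 2 arrays of a culture were averaged, and a culture counted only where both had a value. A probe was kept if well above background for 1 RNA on at least 4 of 6 arrays, which removed 43 probes. That filter was weak, since 18.5% to 81.5% of negative control spots carried the flag, so readings above the 95th percentile of the negative controls are given too, a measure added after seeing the data. Each gene was represented by its brightest probe, a feature needed 2 cultures, and 2093 of 17514 features rested on 2. Ratios were tested against 0 with lmFit and eBayes, with Benjamini-Hochberg adjustment over all features, and again with each of 20185 probes as a feature. Both portions come from the same culture per the labels, so the test is paired.

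Names came from gene IDs (9928 probes), symbols or synonyms of a RefSeq table, else from the array files. The 18 probes with human names, set apart after seeing the data, stayed features of their own. Promoter sequences are RefSeq's for GRCm38.p6. The script was tested on simulated data. All integrin subunits and probes are named. From each list of related genes up to 4 called genes with the largest ratios are named, or the 2 brightest where fewer than 2 were called, and Fn1, Vtn and Spp1 in any case. The members and lists were chosen with earlier results of these data known.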

Additional observations from a re-analysis of the deposited data

How the results depend on the processing

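The direction of every called subunit was the same under all alternatives run, and no called ratio reversed. Background correction, the normexp offset, median centring, the scanner software's ratios, the authors' value table, the filters on dim and saturated probes, the outlier flags and every probe as a feature left the counts at 0 higher and 2 lower. With the mean of a gene's probes, or with a trended and robust variance, 1 subunit was called lower; Itgb1 was the one lost (adjusted p 0.21 and 0.051 in limma). With the 6 arrays and culture as a random block, 1 was called higher (Itgb7, adjusted p 0.042) and 1 lower, Itgb1 having an adjusted p of 0.082; the correlation within a culture was -0.24 there. With separate channels and no replicate block, which drops the pairing of the portions of a culture, 0 were called lower, Itgb5 had an adjusted p of 0.18 and Itgb1 of 1, and the features called over the array fell from 2084 to 245; of 27 related genes called, 21 lost their call there. Leaving out each culture in turn gave 0 to 1 higher and 0 to 4 lower subunits, and 827 to 5104 called features. Of 2 alternatives chosen after seeing the data, a negative control filter changed neither count, while 5 arrays, without that of culture 3 with mesenchymal RNA in Cy3, left 1 lower, Itgb1 having an adjusted p of 0.11. Where not stated, the cause of a change was not tested. Low signal over background limits Itga9, Itga6 and Itgb6, and saturation limits Itga2.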

Other observations

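A pair of probes outside the members carry descriptions that liken an expressed sequence tag to an integrin, and were picked out after their values were seen. The probe described as weakly similar to mouse integrin alpha-2, K0324A06-3, gave log2 ratios of 1.51, 2.02 and 1.52 in cultures 1, 2 and 3. All 6 arrays were above 0, at 1.28 to 2.04, and the mean of 1.68 ± 0.29 (SD, n = 3), which is 3.21 times the epithelial level, had an adjusted p of 0.00067 in limma. The Itga2 probe itself, saturated for each RNA on 3 arrays, read -0.02. Which gene this tag belongs to is not given in the sources used here. The probe described as highly similar to integrin alpha-5, C0186F07-3, gave 0.08, -0.15 and 0.05, with a mean of -0.0090 ± 0.12 (SD, n = 3) and an adjusted p of 0.97, beside 0.16 for Itga5.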
